A study of Mus musculus with 31 samples.

Results

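The nucleolar ribosome assembly genes examined here are 40 mouse genes whose products transcribe, modify, cut and package ribosomal RNA in the nucleolus. Members were the rows of the array table whose only gene symbol stood on that list, and where a gene had several rows the one with the highest mean over the 31 arrays was used. This gave 39 members among 19938 genes. Noc2l was not analysed here. The study followed the conversion of mouse embryonic fibroblasts (MEFs), cultured connective tissue cells, towards induced pluripotent stem cells, and total RNA was hybridised to Affymetrix whole-transcript arrays. The question asked of these genes was whether a difference between factor-treated and control cells came from a rise in the first or a fall in the second. Every value is a log2 signal as deposited, so that a difference of 1 is a 2-fold change.

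In the 4F arm retroviral vectors delivered c-Myc, Klf4, Sox2 and Oct4, with 2 arrays on each of days 1, 2, 3, 4, 5, 6 and 8 and 1 array on each of days 10 and 12. The 3F arm lacked c-Myc and had 1 array on each of days 3, 5, 8 and 12. The GFP arm, the viral control, had 2 arrays on days 1, 3, 5 and 8 and 1 array on day 12. The start was 2 arrays of uninfected MEFs at day 0. All cells were kept in DMEM with foetal bovine serum. The labels call the numbered arrays biological replicates. The mouse strain, the share of cells that took up virus and whether such replicates were separate cultures are not given in the sources used here, so p-values measure the spread between these arrays. The arrays fell into a replicate 1 set labelled from 120 ng of RNA, a replicate 2 set and a set of 7 without a number, both labelled from 300 ng. The set without a number held every 3F array, 4F days 10 and 12 and GFP day 12.

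Ribosome production begins with RNA polymerase I, which transcribes the long precursor of ribosomal RNA in the nucleolus. Small nucleolar RNPs then modify bases of the precursor, and successive assembly factors fold it, cut it and add ribosomal proteins to form the small and the large subunit. The process takes up much of the biosynthetic effort of a dividing cell, and c-Myc, which binds E-box sequences, is a known activator of its genes.

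The labels were checked against marker genes and the delivered factors. Of the 10 fibroblast markers, 9 had means between 9.18 (Pdgfra) and 13.3 (Vim) at day 0, among them Col1a1, the collagen chain, at 12.6 and Thy1, a fibroblast surface protein, at 10.3. The other, Lum, was at 5.77, below the array medians. The 5 endothelial markers included Cdh5 at 5.39, and the leukocyte gene Ptprc of the macrophage list stood at 5.11, both near the bottom of the scale. Not every marker of these lists was that low. The lysosomal gene Cd68, of the macrophage list, was above the array medians at day 0. Pou5f1, which encodes Oct4, was at 5.66 and 5.23 on the day 0 arrays, between 6.05 and 9.93 on the 4F arrays, between 6.30 and 10.2 on the 3F arrays and between 5.22 and 5.60 on the GFP arrays, so that every array of the factor arms was above every control array. Sox2 was 0.95 ± 0.17 higher in 4F than in GFP over days 1, 3, 5 and 8 (limma, adjusted p = 0.0003). It read 5.66 and 5.98 at day 0, 5.74 and 6.13 on 4F day 1, and 6.79 and 8.21 on 4F day 8. Its GFP arrays ran from 5.31 to 5.57. Klf4 was lower in 4F than in GFP over the same days, by -0.64 ± 0.13 (limma, adjusted p = 0.00091). Myc also went against its label as a check. Its signal was 9.70 and 9.58 at day 0, 7.83 and 8.50 on 4F day 1, and 6.58 and 7.21 on 4F day 2, whereas the 3F arrays, labelled as lacking c-Myc virus, read 9.04, 8.26, 9.37 and 7.95. Most GFP arrays were also below day 0 in Myc, down to 6.58 on day 12. The replicates of GFP day 8 stood far apart, at 7.15 and 9.72. Over days 3, 5, 8 and 12 the difference of Myc between 4F and 3F was -1.48 ± 0.50 (SE) and did not pass the threshold (limma, adjusted p = 0.075). Whether the probe sets read the viral transcripts is not known, and "4F" and "3F" are used here as the labels give them.

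Against GFP, all 39 members were higher in 4F when days 1, 3, 5 and 8 were averaged (limma, Benjamini-Hochberg adjusted p under 0.05), where 18.8% of all genes were called higher and 18.7% lower. The median of the members' differences was 0.81, against -0.03 over all genes. By day, 25 members were higher on day 1 (background 1.42%), 13 on day 3 (6.28%), 33 on day 5 (10.5%) and 38 on day 8 (14.5%), and none was lower on any of these days, against 0.391%, 5.65%, 10.9% and 13% of all genes. The medians were 0.75, 0.39, 0.91 and 1.20. Dkc1 showed the largest averaged difference, 1.55 ± 0.06 (SE), and Noc3l the smallest, 0.34 ± 0.10. Every 4F array was above every GFP array of its day in 39, 32, 38 and 39 members (20.2%, 22.4%, 28.2% and 24.5% of all genes). Within the replicate 1 set the median was 0.91, 0.49, 1.07 and 1.19 on the 4 days, and within the replicate 2 set 0.61, 0.38, 0.75 and 1.18. The counts on the earlier days rested on few arrays. Day 1 kept 5 or 4 calls without 4F replicate 1 or 2 and 3 or 16 without GFP replicate 1 or 2, day 3 kept 4, 3 and 2 without 4F replicate 1, 4F replicate 2 and GFP replicate 1, and day 5 kept 20 without 4F replicate 1.

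Set against day 0, the median of the members lay near 0 in 4F up to day 8, with members on both sides of it, and below 0 in GFP. The median of the 39 members in 4F was 0.16 above day 0 on day 1, 0.12 on day 2, 0.00 on day 3, 0.02 on day 4, 0.04 on day 5, 0.06 on day 6 and -0.05 on day 8. In GFP it was -0.60 on day 1, -0.41 on day 3, -0.84 on day 5 and -1.19 on day 8, and on the single day 12 array -1.33. The median over all genes stayed between -0.03 and 0.02 in every group. In 31 of 39 members all 9 GFP arrays were below both day 0 arrays, which held for 7.1% of all genes. No member had all 14 of the 4F arrays of days 1 to 8 below both day 0 arrays (6.28% of all genes), and 6 had all 14 above them (6.22%). Those 6 were Dkc1, Nop10, Polr1b, Polr1e, Noc4l and Nop16. Day by day, the arrays of 4F did not overlap with day 0 and lay above it in 17 members on day 1 (18.3% of all genes), 11 on day 2 (22.4%), 11 on day 3 (22.5%), 11 on day 4 (24.1%), 11 on day 5 (25.2%), 10 on day 6 (25.4%) and 8 on day 8 (23%). They lay below it in none on days 1 and 2 (19.6% and 24.5%), 13 on day 3 (27.3%), 7 on day 4 (23.6%), 7 on day 5 (26.4%), 8 on day 6 (27.1%) and 11 on day 8 (24.1%). For day 8 the counts above and below are both near these shares of all genes. On day 1 the difference from day 0 was above 0 in 37 of 39 members within the replicate 1 set and in 32 within the replicate 2 set. On day 8 these numbers were 13 and 24. In a bulk culture a lower signal from fewer cells of one kind and less RNA per cell cannot be told apart.

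**Figure D1:**
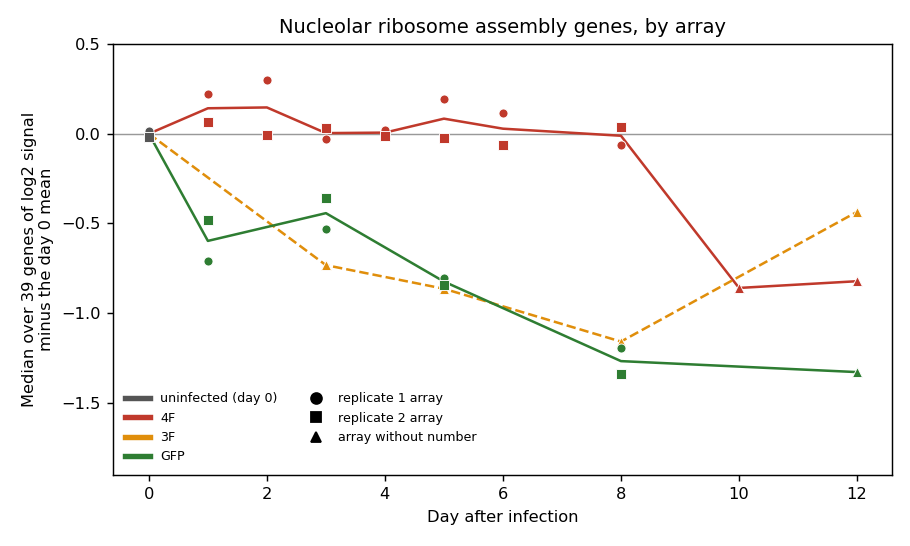
Median over the 39 members of the log2 signal minus the day 0 mean (y axis) on each array, against the day after infection (x axis); circles are replicate 1, squares replicate 2 and triangles arrays without a number, and lines join the means of each arm. The 4F arrays lie between -0.06 and 0.30 up to day 8 and near -0.86 and -0.82 on days 10 and 12, while every GFP array lies below day 0, down to -1.34.

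The GFP cells were tested against day 0 on 4 days. On day 1, 3 members were lower (background 0.0502%), namely Dkc1, Nop2 and Nop56, and all 39 estimates were below 0. On day 3 the count was 1, Dkc1 (0.326%). It was 33 on day 5 (4.83%) and 38 on day 8 (11.2%), and no member was higher on any day, against 0.0401%, 0.727%, 5.74% and 8.92% of all genes. With the replicate number as a block, the day 1 and day 3 counts were 10 and 6. The day 1 count fell to 0 without either day 0 array or GFP replicate 1, and the day 3 count was 0 without either day 0 array or GFP replicate 1 and 7 without GFP replicate 2. The day 5 count was 19 without day 0 replicate 1 and 21 without GFP replicate 2. Arrays did not overlap with day 0 in 37 members on day 1 (all genes 18.5%), 31 on day 3 (19.4%), 38 on day 5 (25.6%) and 38 on day 8 (24.9%), each time below it. From day 1 to day 8 the GFP cells fell further in 27 members (6.06% of all genes), with a median of -0.69, and none rose (4.95%). That count was 11 without GFP day 1 replicate 2, and 15 and 16 without GFP day 8 replicates 1 and 2. From day 1 to day 3, 31 of the 39 estimates went up, with a median of 0.16, but none was called by limma (0.181%), with 6 at an unadjusted p under 0.05.

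The 4F cells were tested against day 0 on 7 days, and few members passed. Higher than day 0 were 1 member on day 1 (background 0.512%), 4 on day 2 (4.44%), none on day 3 (4.6%), 2 on day 4 (4.74%), 3 on day 5 (6.47%), 3 on day 6 (8.14%) and none on day 8 (7.39%). At an unadjusted p under 0.05, in either direction, there were 5 members on day 3 and 11 on day 8. All calls were of 5 genes: Polr1e on days 1 and 2, Dkc1 and Nop10 on days 2, 4, 5 and 6, Polr1b on days 2 and 6, and Gar1 on day 5. On days 4, 5 and 6 these shares of 39 are near the share of all genes. With the replicate number as a block the counts of days 1, 3 and 4 were 2, 1 and 4. No member was lower on days 1 to 6, against 0.326%, 4.91%, 3.93%, 5.33%, 7.08% and 7.98% of all genes, and on day 8 those called lower were Utp20, Rrp12, Nop2 and Noc3l (8.51%). This share of 39 on day 8 is also near the share of all genes. Most of these counts of 4F against day 0 changed without 1 array. Without day 0 replicate 1 they were 0, 1, 0, 0 and 0 on days 1, 2, 4, 5 and 6, and the day 8 count of lower members was 2 without either day 0 array and 1 without 4F replicate 2. Without day 0 replicate 2 or 4F replicate 1 the day 1 count was also 0, and without 4F replicate 1 the counts of days 2, 4, 5 and 6 were 1, 1, 0 and 1. Without 4F replicate 2 those of days 4 and 5 were 0.

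**Figure D2:**
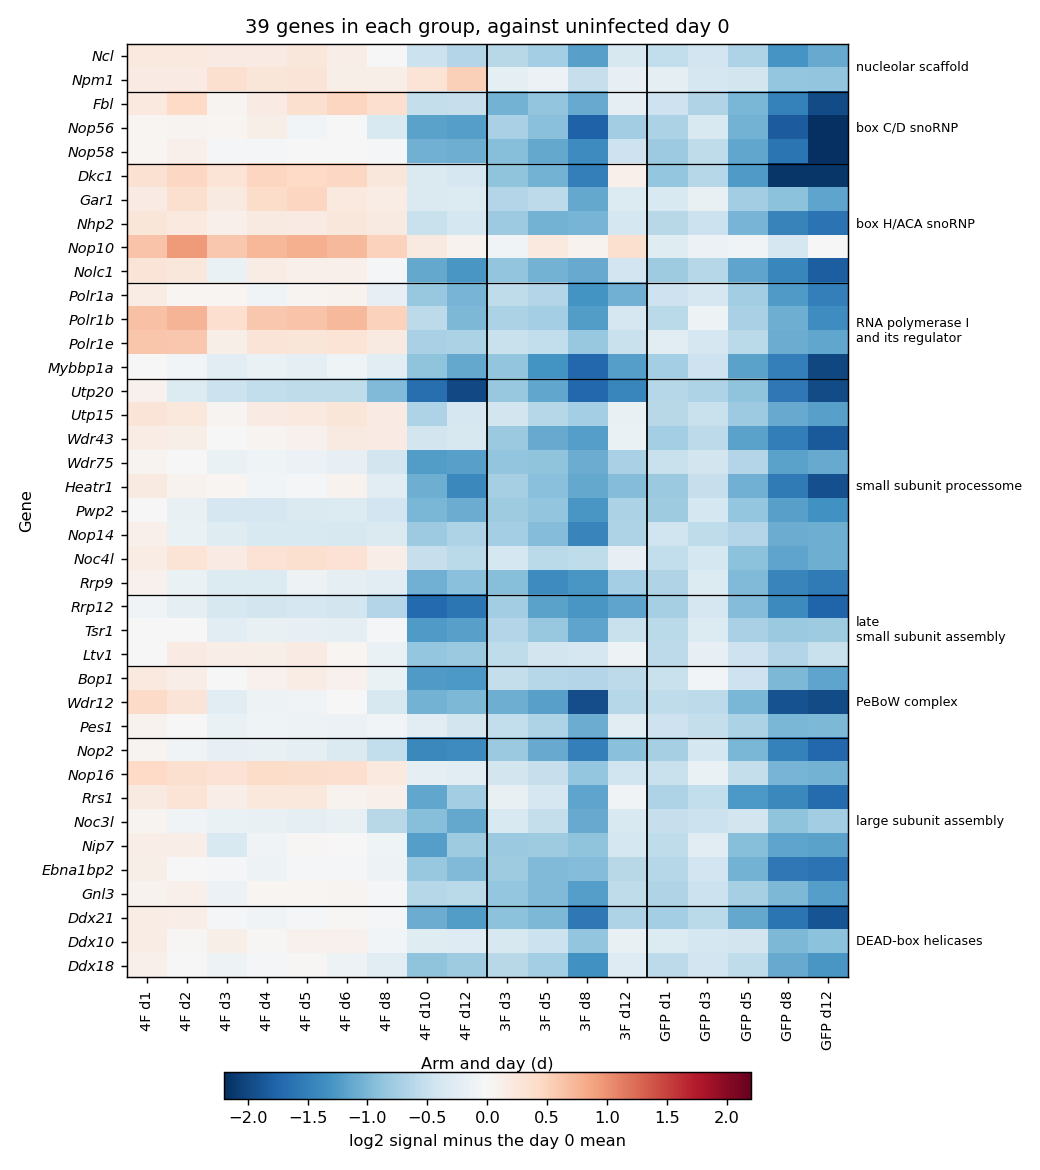
Log2 signal minus the day 0 mean of the 39 members (rows, by role) in each group (columns, arm and day), red above and blue below day 0. The 4F columns up to day 8 are pale. Nop10, Polr1b and Dkc1 are among the members above day 0 in all of these columns. Utp20 is at 0.10 on 4F day 1 and -0.97 on 4F day 8. The GFP columns are mostly blue, down to -2.21 in Nop56 on day 12, with Nop10 at 0.00 there.

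The promoters of the members were read from RefSeq (GRCm38.p6) windows of 250 bases before and 50 bases from the start site on, which were held for 34 of the 39. The E-box CACGTG, the sequence bound by c-Myc with its partner Max, was found in 7 of 34 members (20.6%) and in 8.09% of all 27025 genes with a window. The related CACGCG was found in 11 members (32.4%, against 10.5%), and CCGGAA, the core of ETS factor sites, in 16 (47.1%, against 16.7%), searching both strands. CACGTG is its own reverse complement, and no one of the 3 contains another. The median GC content was 58.7% in the members and 52.7% in all, and its part in these shares was not tested. The stretches of 30 bases around the 7 E-boxes are shown because c-Myc was among the delivered factors. They are written 5′ to 3′ on the gene's strand with the E-box in capitals.
Ltv1, chr10:13193092-13193121, minus strand: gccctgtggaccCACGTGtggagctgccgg
Mybbp1a, chr11:72441347-72441376, plus strand: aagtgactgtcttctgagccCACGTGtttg
Nop2, chr6:125131811-125131840, plus strand: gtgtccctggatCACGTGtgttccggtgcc
Pes1, chr11:3963965-3963994, plus strand: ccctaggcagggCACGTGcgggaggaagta
Tsr1, chr11:74898092-74898121, plus strand: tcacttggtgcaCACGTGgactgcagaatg
Utp20, chr10:88826765-88826794, minus strand: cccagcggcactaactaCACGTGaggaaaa
Wdr43, chr17:71616220-71616249, plus strand: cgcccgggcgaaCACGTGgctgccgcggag

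In Nop2 the E-box began 60 bases before the start site, and in the other 6 genes it lay from the start on. The 7 genes did not share 1 course: Wdr43 differed from day 0 by 0.19 ± 0.14 on 4F day 8 (adjusted p = 0.48), and Nop2 and Utp20 fell in both arms. At least 1 of the 3 sequences was found in 23 of the 34 members. Dkc1, the member with the widest gap between the arms, was among those with none in the window. The relation of these sequences to the signals was not tested. The 100 bases before the start of Nop2 and of Dkc1 are shown as an example with matches and an example without, with CACGTG and with CCGGAA or its reverse complement in capitals.
Nop2, chr6:125131783-125131882, plus strand: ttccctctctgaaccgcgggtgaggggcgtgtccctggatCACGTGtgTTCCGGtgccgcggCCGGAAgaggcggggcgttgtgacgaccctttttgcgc
Dkc1, chrX:75095754-75095853, plus strand: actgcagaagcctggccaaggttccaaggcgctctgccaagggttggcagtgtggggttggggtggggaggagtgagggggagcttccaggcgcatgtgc
A match describes the letters of the window, and the windows were not set against binding data.

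The scaffold of the nucleolus was represented by Ncl (nucleolin, an abundant RNA-binding protein) and Npm1 (nucleophosmin, a chaperone of ribosome assembly). Ncl read 11.26 and 11.11 at day 0, 11.13 and 11.26 on 4F day 8, and 9.82 and 9.97 on GFP day 8. The 4F arrays of day 8 fell within the spread of day 0, and both GFP arrays were below it. The GFP change was -1.29 ± 0.14 (SE, 2 arrays per group; limma, adjusted p = 1.9e-05), and the 4F change was 0.01 ± 0.14 (adjusted p = 0.99). Npm1 read 11.30 and 11.36 at day 0, 11.35 and 11.55 on 4F day 8, and 10.33 and 10.64 on GFP day 8. Here the GFP replicates stood apart from each other on day 3, at 10.60 and 11.32. The change of Npm1 in GFP by day 8 was -0.85 ± 0.19 (adjusted p = 0.0053). On 4F days 10 and 12 Npm1 read 11.64 and 11.86, above both day 0 arrays, and it was the single member for which this held on both days (all genes 29.7%).

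The box C/D small nucleolar RNPs guide ribose methylation, with Fbl (fibrillarin) as the methyltransferase and Nop56 and Nop58 as core proteins. All 3 were higher in 4F than in GFP on day 8 (14.5% of all genes), by 1.86, 1.49 and 1.57, and all 3 were lower in GFP than at day 0 (11.2%). Nop56 read 10.86 and 10.93 at day 0, 10.67 and 10.46 on 4F day 8, and 9.20 and 8.94 on GFP day 8, and 8.68 on the GFP day 12 array. Both arms were below day 0, GFP by far more. Its GFP change was -1.82 ± 0.12 (limma, adjusted p = 6.3e-07) and its 4F change -0.33 ± 0.12 (adjusted p = 0.076). On 4F days 1 to 6 the Nop56 arrays lay between 10.78 and 11.09. Fbl read 9.80 and 9.31 at day 0, 10.23 and 9.63 on 4F day 8, and 8.16 and 7.99 on GFP day 8. The replicate 1 arrays of Fbl were higher than those of replicate 2 in the day 0 and all the 4F pairs, and its 4F change was 0.37 ± 0.29 (adjusted p = 0.52, and 0.15 with the replicate number as a block).

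The box H/ACA RNPs convert uridine to pseudouridine, with Dkc1 (dyskerin) as the enzyme, Gar1, Nhp2 and Nop10 as its partners, and Nolc1 as a chaperone. Dkc1 carried the widest gap of all members. It read 9.21 and 9.38 at day 0, while the 14 4F arrays of days 1 to 8 had a lowest value of 9.50, a median of 9.67 and a highest of 9.87. The 9 GFP arrays ran from 7.06 through a median of 8.09 to 8.77. All 4F arrays up to day 8 were thus above day 0 and all GFP arrays below. Against day 0 the 4F difference was 0.46 ± 0.12 on day 2 (limma, adjusted p = 0.021), and 0.25 ± 0.12 on day 8 (adjusted p = 0.19). The GFP difference of Dkc1 was -0.85 ± 0.12 on day 1 (adjusted p = 0.011) and -2.15 ± 0.12 on day 8 (adjusted p = 3.0e-07). The gap between the arms widened by 1.21 ± 0.17 from day 1 to day 8 (adjusted p = 0.00042).

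Nop10 was the exception of this class and of the whole list. Its day 0 arrays read 9.06 and 9.53, its 4F arrays of days 1 to 8 from 9.68 to 10.25, and its GFP arrays from 8.77 to 9.58. The 4F arrays were all above day 0 and the GFP arrays overlapped with it. Nop10 was higher in 4F than at day 0 by 0.94 ± 0.21 on day 2 (limma, adjusted p = 0.011), and its GFP change of -0.36 ± 0.21 on day 8 did not pass (adjusted p = 0.29). It was the single member not called lower in GFP on day 8. Its difference between the arms was the smallest of the 5 H/ACA genes on day 8, at 0.87 ± 0.21 (adjusted p = 0.0057). The smallest averaged over days was that of Gar1, 0.80 ± 0.07. Gar1 read 9.26 and 9.59 on 4F day 8 and 8.36 on both GFP arrays of that day, against 9.30 and 9.22 at day 0.

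RNA polymerase I was represented by its catalytic subunits Polr1a and Polr1b, the subunit Polr1e and the nucleolar regulator Mybbp1a. All 4 were higher in 4F than in GFP on day 8 (14.5% of all genes) and lower in GFP than at day 0 (11.2%), while only Polr1b and Polr1e were called higher in 4F than at day 0 at any time. Polr1e read 8.18 and 8.23 at day 0, 8.91 and 8.72 on 4F day 1, 8.91 and 8.70 on day 2, and 8.32 and 8.35 on day 3. The arrays of the first 2 days were clear of day 0 and those of day 3 close to it. The difference was 0.61 ± 0.10 on day 1 (limma, adjusted p = 0.013), the single call in 4F on that day, 0.60 ± 0.10 on day 2 (adjusted p = 0.0017) and 0.13 ± 0.10 on day 3 (adjusted p = 0.57). From 4F day 1 to 4F day 8 Polr1e fell by 0.42 ± 0.10 (adjusted p = 0.016).

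Polr1b read 8.38 and 8.56 at day 0, from 8.74 to 9.42 on the 14 4F arrays up to day 8, and 7.90 and 7.49 on the 4F arrays of days 10 and 12. Its GFP arrays ran from 7.10 to 8.53. Up to day 8 the 4F arrays did not overlap with day 0, and the 2 late ones were below it. The change in 4F was 0.74 ± 0.22 on day 2 (limma, adjusted p = 0.044) and 0.72 ± 0.22 on day 6 (adjusted p = 0.036). Polr1a, by contrast, read 8.44 and 8.68 at day 0 and from 8.18 to 8.84 in 4F up to day 8, and overlapped with it. Of 15 further RNA polymerase I genes, 11 were higher in 4F than in GFP on day 8 (14.5% of all genes) and none lower (13%), and 11 were lower in GFP than at day 0 (11.2%), with medians of 0.82 and -0.50. Taf1d, a subunit of the selectivity factor that recruits the polymerase, differed most (1.33 ± 0.10 averaged over days), and the deacetylase Sirt7 least (-0.07 ± 0.06, adjusted p = 0.36).

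The small subunit processome folds the part of the precursor that becomes the small subunit, and 9 of its proteins were members. All 9 were higher in 4F than in GFP on day 8 (14.5% of all genes), with a median of 1.20, and all 9 were lower in GFP than at day 0 (11.2%), with a median of -1.19. Wdr43 had the widest averaged gap, 1.12 ± 0.07, and Utp20 the narrowest, 0.47 ± 0.11. Wdr43 read 10.05 and 9.96 at day 0, 10.00 and 10.38 on 4F day 8, and 8.57 and 8.41 on GFP day 8. Utp20 ended below day 0 in both arms. On 4F day 1 its arrays were both above both day 0 arrays, by 0.10 on average, and those of GFP day 1 were below them, at 8.29 and 8.38. It read 8.95 and 8.97 at day 0, 8.95 and 8.38 on 4F day 2, 8.16 and 7.81 on 4F day 8, 7.29 and 6.98 on 4F days 10 and 12, and 7.39 on both GFP arrays of day 8. The change of Utp20 by day 8 was -0.97 ± 0.21 in 4F (limma, adjusted p = 0.0051; 0.055 without 4F replicate 2) and -1.57 ± 0.21 in GFP (adjusted p = 9.9e-05).

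Rrp12, Tsr1 and Ltv1 act in the later maturation and export of the small subunit, and the gap between the arms was smaller in this group, with a median of 0.74 on day 8 and 0.07 on day 3. Rrp12 read 8.48 and 8.33 at day 0, 7.84 and 7.68 on 4F day 8, 6.70 and 6.82 on 4F days 10 and 12, and 7.10 and 6.92 on GFP day 8. Like Utp20, it was below day 0 in both arms, and lowest on the late 4F arrays and the GFP array of day 12, at 6.64. Its change by day 8 was -0.65 ± 0.18 in 4F (limma, adjusted p = 0.023, and 0.062 to 0.14 without either day 0 array or 4F replicate 2) and -1.40 ± 0.18 in GFP (adjusted p = 7.6e-05). Ltv1 was the member with the smallest called fall in GFP on day 8, -0.64 ± 0.15 (adjusted p = 0.0053). Of 43 further small subunit factors, 32 were higher in 4F than in GFP on day 8 (14.5% of all genes) and none lower (13%), and 36 were lower in GFP than at day 0 (11.2%). Utp18, a processome protein, differed most over the days (1.12 ± 0.09) and Rrp36 least (0.01 ± 0.04).

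Pes1, Bop1 and Wdr12 form the PeBoW complex, which is needed for cutting the large subunit's RNA. All 3 were higher in 4F than in GFP on day 8 (14.5% of all genes) and lower in GFP than at day 0 (11.2%), by unequal amounts. Wdr12 read 9.27 and 9.24 at day 0, 9.65 and 9.69 on 4F day 1, 9.08 and 8.73 on 4F day 8, and 7.34 on both GFP arrays of day 8. It started above day 0 in 4F and ended below it. Wdr12 fell by 0.76 ± 0.14 from 4F day 1 to day 8 (limma, adjusted p = 0.0029), while its second row changed by -0.57 and was not called (adjusted p = 0.19). Wdr12 was 1.57 ± 0.14 higher than in GFP on day 8 (adjusted p = 1.5e-06). Pes1 moved little in 4F, from 9.52 and 9.45 at day 0 to 9.35 and 9.52 on day 8 and 9.25 and 9.09 on days 10 and 12, and read 8.48 on both GFP arrays of day 8. Bop1 had the widest spread between replicates of the 3, with 8.86 and 8.29 on 4F day 8, and a difference from GFP of 0.85 ± 0.27 (adjusted p = 0.025).

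Of 7 further large subunit factors, 6 were higher in 4F than in GFP on day 8 (14.5% of all genes) and all 7 were lower in GFP than at day 0 (11.2%). Rrs1, which helps to build the small RNA of the large subunit into it, had the widest averaged gap, 1.15 ± 0.08. It read 8.72 on both day 0 arrays, 8.91 and 8.76 on 4F day 8, 7.38 and 7.21 on GFP day 8, and 7.57 and 7.95 on 4F days 10 and 12. Noc3l, a factor of early large subunit particles, was the member not called between the arms on day 8, at 0.27 ± 0.20 (limma, adjusted p = 0.38). Noc3l read 7.94 and 8.23 at day 0, 7.44 and 7.50 on 4F day 8, and 7.12 and 7.28 on GFP day 8, so that it fell in both arms, by 0.62 ± 0.20 (adjusted p = 0.045, and 0.06 to 0.29 without any 1 of the 4 arrays) and 0.89 ± 0.20 (adjusted p = 0.0043). Nop2, an RNA methyltransferase, also fell in both, by 0.53 ± 0.10 in 4F (adjusted p = 0.0021) and 1.49 ± 0.10 in GFP (adjusted p = 9.9e-07). Gnl3 (nucleostemin, a nucleolar GTPase abundant in stem cells) read 9.65 and 9.44 at day 0, 9.41 and 9.59 on 4F day 8, and 8.53 and 8.60 on GFP day 8. Its 4F arrays overlapped with day 0 and its GFP change was -0.98 ± 0.15 (adjusted p = 0.00026). Of 48 further genes of this step, 40 were higher in 4F than in GFP on day 8 (14.5% of all genes) and 1 lower (13%), and 41 were lower in GFP than at day 0 (11.2%) and 1 higher (8.92%). Mrto4 differed most (1.04 ± 0.08), and Ddx50, a helicase, was lower in 4F (-0.27 ± 0.07, adjusted p = 0.0045).

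The DEAD-box helicases unwind RNA during assembly. Ddx21 read 10.30 and 10.23 at day 0, 10.12 and 10.32 on 4F day 8, and 8.59 and 8.73 on GFP day 8. The GFP arrays of Ddx21 were apart from all others of the 3 groups, with a difference between the arms of 1.56 ± 0.16 (limma, adjusted p = 3.4e-06). Ddx10 had replicates further apart, 8.13 and 8.53 at day 0 and 7.97 and 8.59 on 4F day 8, and a difference of 0.93 ± 0.20 (adjusted p = 0.0026). Fbl, Wdr12 and Ddx18 each had a second row with lower signal. In GFP by day 8 these second rows changed by -0.90, -1.73 and -1.04, against -1.49, -1.91 and -1.11 in the rows used, and all 3 were called. The second row of Fbl was called for the growth of the gap between 4F and GFP from day 1 to day 8 (0.85, adjusted p = 0.01), which the row used was not. The second row of Wdr12 was not called between 4F and GFP on day 1 (0.90, adjusted p = 0.082), where the row used was.

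**Figure D3:**
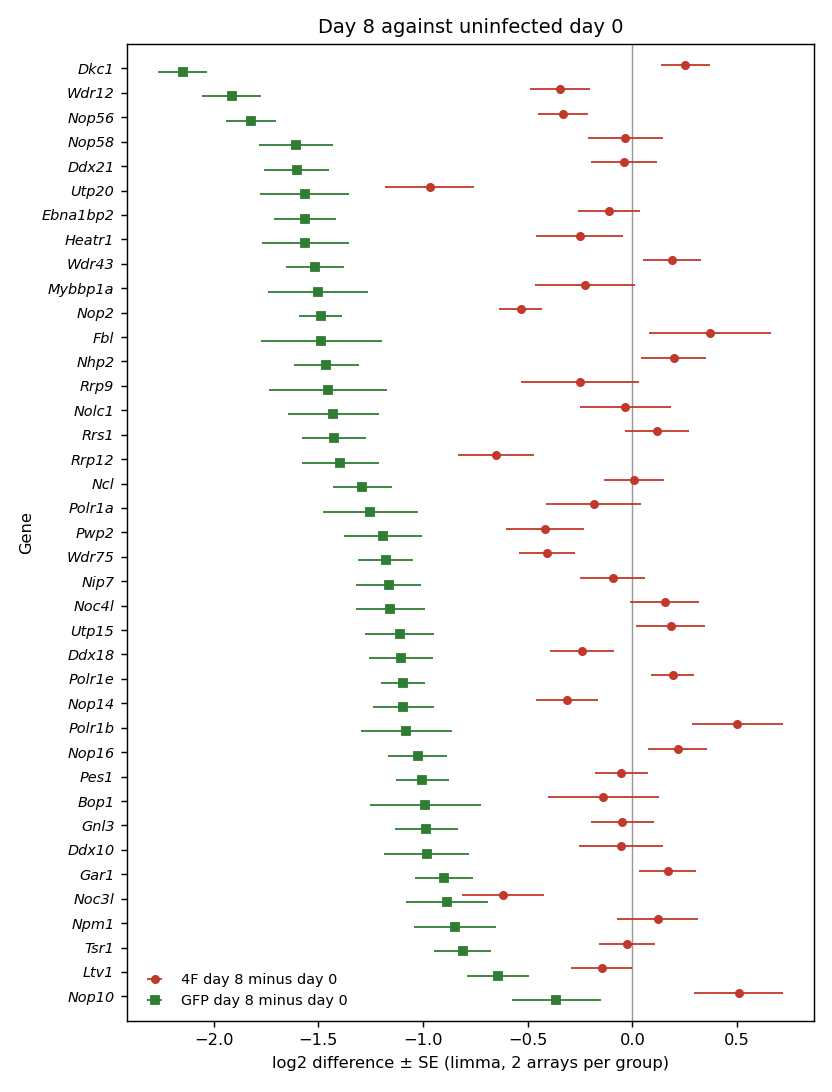
Log2 difference from day 0 on day 8 (x axis, ± SE from limma, 2 arrays per group) for each of the 39 members (y axis), red circles for 4F and green squares for GFP. GFP values run from -2.15 (Dkc1) to -0.36 (Nop10), while 4F values run from -0.97 (Utp20) to 0.51 (Nop10) and mostly lie near 0.

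Whether the gap between 4F and GFP grew was tested as day 8 minus day 1. It grew in 4 members (background 3.92%), Dkc1, Nhp2, Wdr43 and Nop56, by 1.21, 0.78, 0.79 and 0.75, and shrank in none (4.57%). The median growth over the members was 0.42. In these 4 genes the 4F arm changed by -0.09, -0.08, 0.02 and -0.38 between the days, none of them called, and the GFP arm by -1.30, -0.86, -0.77 and -1.13, all called. The count was 2 without 4F day 1 replicate 2 or GFP day 8 replicate 2 and 1 without GFP day 1 replicate 2. Within 4F, none rose (4.37%) and 6 members fell from day 1 to day 8 (5.69%), which were Noc3l, Nop2, Polr1e, Utp20, Wdr12 and Wdr75, and 3 did so without replicate 1 of either day.

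**Figure D4:**
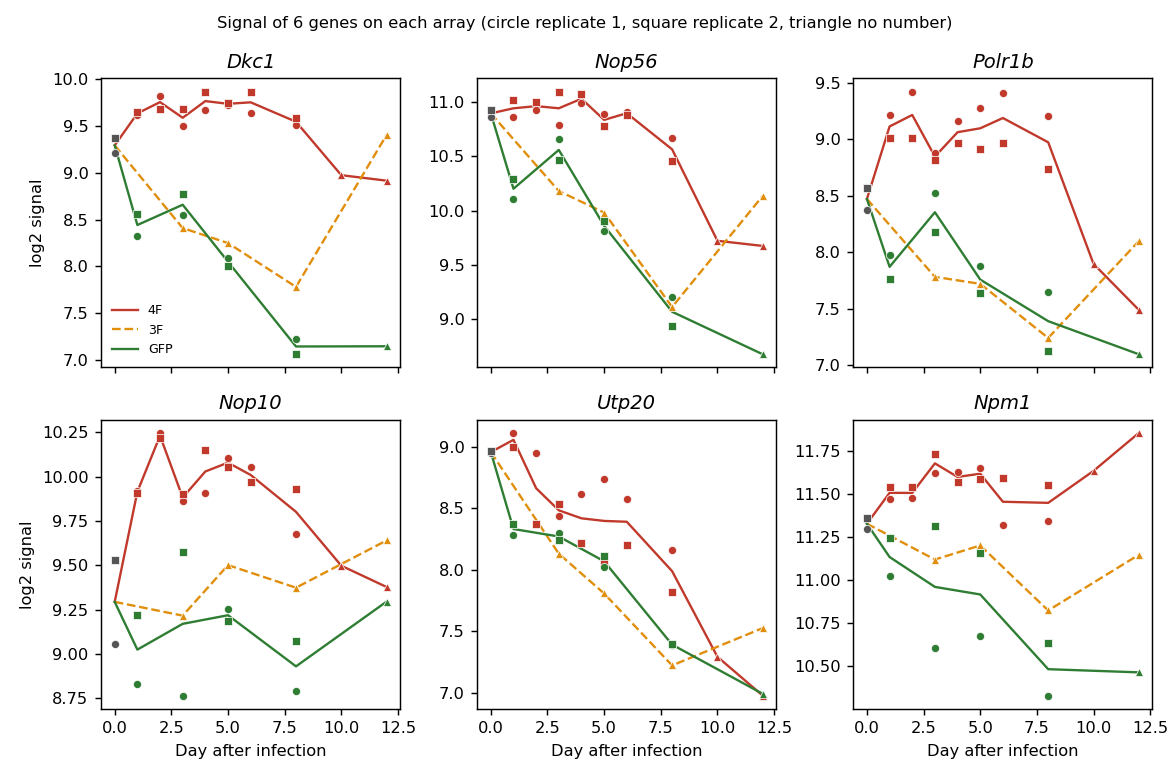
Log2 signal (y axis, each panel on its own scale) of 6 members on every array against the day after infection (x axis), with lines through the group means. The 4F arrays of Dkc1, Polr1b and Nop10 lie above day 0 up to day 8, those of Nop56 between 10.78 and 11.09 up to day 6, Utp20 reaches 6.98 on 4F day 12 and 6.99 on GFP day 12, and Npm1 is highest on 4F day 12, at 11.86.

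The late 4F arrays differed from the earlier ones. On day 10, 29 of 39 members were more than 0.5 below day 0 (12.9% of all genes), with a median of -0.86, and on day 12 again 29 (12.6%), with a median of -0.82. The lowest were Rrp12 on day 10, at -1.70, and Utp20 on day 12, at -1.98. Set against 4F day 8, 38 members were lower on day 10, and 30 by more than 0.5 (5.48%), with a median of -0.70. In 37 members both late arrays were below both day 0 arrays (33%). The exceptions were Npm1, at 0.31 and 0.53 above day 0, and Nop10, whose 2 values of 9.50 and 9.38 lay between the day 0 arrays. Between days 10 and 12 no member moved up or down by more than 0.5, against 0.913% and 0.441% of all genes. Both arrays belong to the set without a number and day 0 does not, so for this comparison set and day cannot be told apart, and there was 1 array per day and no test.

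In 3F, most members were below day 0 up to day 8. Members more than 0.5 below day 0 numbered 30 on day 3 (5.15% of all genes), 34 on day 5 (6.34%) and 37 on day 8 (9.7%), with medians of -0.73, -0.86 and -1.16, and none was more than 0.5 above it on day 3 (6.76%). On day 12 the number was 16 (8.5%) and the median -0.44. In 35 members all 4 arrays of 3F were below both day 0 arrays (19%). Dkc1 read 8.41, 8.25 and 7.78 on days 3, 5 and 8 and 9.40 on day 12, so that its last array was above both of day 0. Nop56 read 10.18, 9.98, 9.11 and 10.14, and Utp20 read 8.13, 7.81, 7.22 and 7.52. From day 8 to day 12 all 39 members were higher in 3F, 26 by more than 0.5 (6.63%), most of all Dkc1 with 1.62. Set against the 4F means of days 3, 5 and 8, all 39 members were lower in 3F, 27, 37 and 36 of them by more than 0.5 (4.03%, 5.45% and 7.96% of all genes), with medians of 4F minus 3F of 0.63, 0.85 and 1.07. Set against the GFP means, 33 members were lower in 3F on day 3, 3 by more than 0.5 (4.46%), 21 were higher on day 5, 1 by more than 0.5 (6.88%), and 25 were higher on day 8, 3 by more than 0.5 (9.68%). The medians of 3F minus GFP were -0.31, 0.02 and 0.12. These are single 3F arrays and were not tested.

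When arm and day were fitted as separate terms to the arrays of days 3, 5, 8 and 12, 1 member was higher in 3F than in GFP (9.47% of all genes) and none lower (8.82%). It was Rrs1, by 0.77 ± 0.22 (SE; limma, adjusted p = 0.023), with a median of 0.14. Rrs1 read 8.55, 8.36, 7.56 and 8.64 in 3F. In the same fit 17 members were higher in 4F than in 3F (3.87%) and none lower (5.77%), with a median of 0.59, among them Dkc1 (1.05 ± 0.30, adjusted p = 0.043), Polr1b (0.98 ± 0.28, adjusted p = 0.037) and Gnl3 (0.75 ± 0.16, adjusted p = 0.012). The days did not act alike: without the day 12 arrays the counts were 0 for 3F against GFP and 38 for 4F against 3F. With the set as a block, under which only the day 12 array of 3F enters the comparison, they were 21 and 0. The 3F count was 0 without the 3F arrays of day 5 or 12 or the GFP array of day 12, and 2 without GFP day 3 replicate 2. The 4F count was 32 without 4F day 12, 35 without 3F day 12, 1 without the 3F array of day 3, 5 or 8, and 10 or 11 without any one of the day 5 arrays of 4F or GFP or the day 8 arrays of 4F. On days 3, 5 and 8 arm and set cannot be told apart for 3F.

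Day 12 is where all arms share a set. There 33 of 39 members were higher in 4F than in GFP, 22 by more than 0.5 (13.5% of all genes), and all 39 were higher in 3F than in GFP, 32 by more than 0.5 (13.9%), with medians of 0.53 and 0.79. Between the factor arms 33 members were higher in 3F than in 4F, 10 by more than 0.5 (8.07%), with a median of 0.40, and Npm1 was 0.71 lower. Dkc1 read 8.92 in 4F, 9.40 in 3F and 7.15 in GFP. Nolc1, the snoRNP chaperone, read 7.99, 8.85 and 7.46. Tsr1 read 8.62, 9.33 and 9.04, so that here 4F was below GFP.

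Other gene groups moved in the same cultures. The median of 23 cell division genes (replication and mitosis) against day 0 was 0.20 on 4F day 8, -0.54 on 3F day 8 and -1.91 on GFP day 8, and -0.24, 0.03 and -1.94 on day 12. All 23 were higher in 4F than in GFP on day 8 (14.5% of all genes), and all 23 lower in GFP than at day 0 (11.2%). Mcm7, a subunit of the replicative helicase, differed most (1.36 ± 0.08 over the days). The 2 groups differed in 3F, where 20 of 23 cell division genes were higher than in GFP with arm and day as terms but 1 of 39 members was (9.47% of all genes). They also differed on the late 4F arrays, where the members lay near -0.86 and -0.82 and the cell division genes near -0.13 and -0.24. These differences between the lists were not tested.

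**Figure D5:**
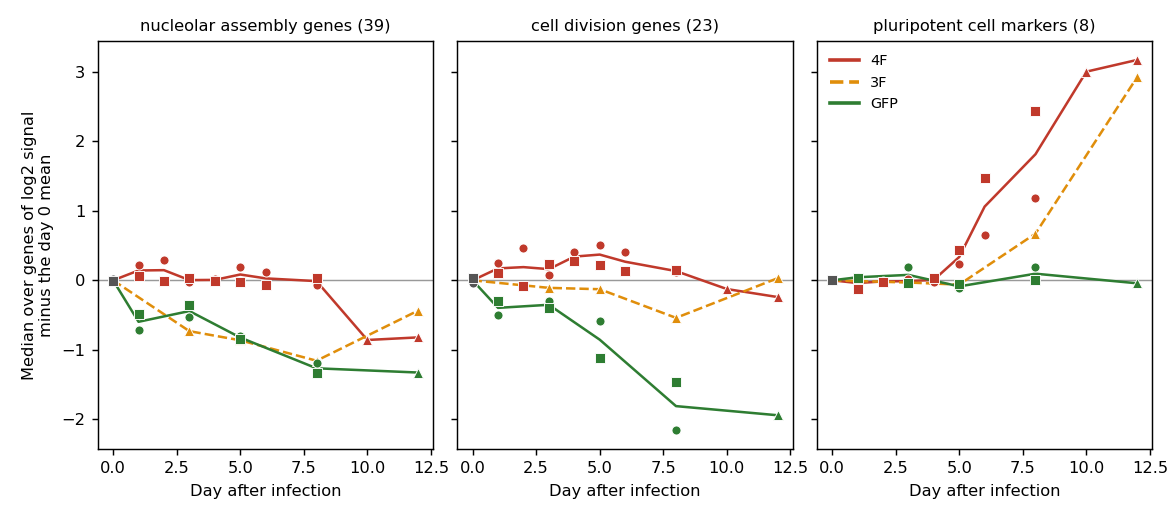
Median over the genes of 3 lists of the log2 signal minus the day 0 mean (y axis) on each array, against the day after infection (x axis), for the 39 members, 23 cell division genes and 8 pluripotent cell markers. On GFP day 8 the members reach -1.34 and the cell division genes -2.16, and in 4F the members drop after day 8 while the pluripotent cell markers reach 3.17 on day 12.

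The signals of cell type markers changed as well, and whether the makeup of the cultures changed was not tested. The median of the 10 fibroblast markers was -1.21 on 4F day 8, -0.12 on 3F day 8 and 0.79 on GFP day 8, and 9 of 10 were lower in 4F than in GFP on day 8 (13% of all genes). The median of the 8 pluripotent cell markers was 1.82, 0.67 and 0.12 on day 8 and 3.17, 2.93 and -0.04 on day 12, with Nanog at 9.48, 9.32 and 5.98. The 7 epithelial markers stood at 1.13, 0.50 and -0.12 on day 8. The macrophage and endothelial list medians lay between -0.30 and 0.09 in every group. Single genes could differ more. In the macrophage list, 4F minus GFP averaged over days 1, 3, 5 and 8 ran from -1.06 in Lyz2 to 0.22 in Cd68. The skeletal muscle list median was below day 0 in every group, from -0.16 on GFP day 1 to -0.94 on 3F day 5. The day 0 arrays themselves lay at 0.32 and -0.32 around their mean in that list. In 4F days 10 and 12 the lysosomal gene Cd68 read 8.89 and 9.17 against 6.69 at day 0, while Ptprc read 5.03 and 4.99 against 5.11. The part of these changes in the members' signals was not tested.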

How the data were processed

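Per the labels' protocols, total RNA was treated with DNase on the column and labelled with biotin for whole-transcript arrays of Affymetrix. The authors deposited 1 table of log2 signals for 31 arrays and 28853 rows (4.27 to 14.3). The log2 scale was read from the values. The normalization and centring are not given in the sources used here. Column medians ran from 6.04 to 6.17, and values were used as deposited. Rows with 1 gene symbol (21789) gave 19938 genes through the platform annotation, and 1621 rows with several symbols and 5443 with none were left out. Array number and signal over background limit the precision.

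One label of the 3F arrays counts 4 factors and names 3, and their titles were followed. Tests used limma 3.58.1 (R 4.3.3), with 1 mean per group (31 arrays, 12 residual degrees of freedom) and, for 3F, with day and arm (18 arrays). A call needed a p under 0.05 after Benjamini-Hochberg adjustment over the 19938 genes, and single arrays were counted past 0.5. The code was tested on simulated data.

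The members, lists, tests and alternatives were chosen with earlier results of these data known. Members described in full were 10 textbook genes and, in each role class, those with the largest and smallest averaged difference between 4F and GFP. In the lists of further assembly genes both such extremes were named, and of the cell division genes only the largest. Not every extreme of the marker lists was named. The other genes named were chosen after their values were seen. Per the labels, replicate 1 arrays were labelled from less RNA than replicate 2 arrays. Whether the number marks a shared batch is not given. The main tests did not pair arrays by the number, and a block for it was run as an alternative. Replicate differences of 66 pairs of groups correlated with r from 0.081 to 0.69 (median 0.32), above 0.1 in 65. The block was the alternative, beside centring, quantile normalization, other rows, a minimum mean of 6, a variance trend, leaving out each array and, added after seeing the data, the lower rows of Fbl, Wdr12 and Ddx18 and leaving out day 12. The comparisons of days within 4F and within GFP were also added then.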

Additional observations from a re-analysis of the deposited data

Results flagged for a closer look

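In 4 members the difference between 4F and GFP was not the same on day 8 as on day 1, by the limma test of that change: Dkc1 (1.21), Nhp2 (0.78), Nop56 (0.75) and Wdr43 (0.79). Dkc1 kept its call in every alternative run. The calls of Nop56, Nhp2 and Wdr43 were lost in 2, 7 and 4 of them, respectively.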

How the results depend on the processing

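All 39 members stayed higher in 4F than in GFP averaged over days in every alternative run, and no setting reversed a member called in 4F or GFP against day 0 on day 8. With the replicate block, the counts of called members became 2, 1 and 4 for 4F above day 0 on days 1, 3 and 4, 10 and 6 for GFP below day 0 on days 1 and 3, 21 for 3F above GFP and 0 for 4F above 3F, where only the day 12 array of 3F enters. Of the members called higher in 4F than in 3F without the block, these turned negative under it: Ncl (-0.0875), Fbl (-0.36), Dkc1 (-0.53), Nhp2 (-0.0407), Polr1b (-0.29), Polr1e (-0.0266), Utp15 (-0.16), Wdr43 (-0.33), Wdr12 (-0.38), Pes1 (-0.13) and Gnl3 (-0.0025). Members not called without the block were negative too, and the median of 4F minus 3F over all 39 members was -0.29 under it. With quantile normalization the counts were 1, 4 and 5 for 4F above day 0 on days 3, 4 and 5, 8 for the growth of the gap and 2 for 3F above GFP. With arrays centred on their medians the day 4 count was 1, and with a minimum mean of 6 the count for 4F above 3F was 26. The cause was not tested. Without the day 12 arrays the counts were 0 for 3F above GFP and 38 for 4F above 3F. With a threshold of 1, members below day 0 numbered 16 and 15 on 4F days 10 and 12 and 2, 11 and 4 on 3F days 3, 5 and 12.

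Leaving out 1 array at a time gave 3 to 16, 2 to 15, 20 to 35 and 33 to 36 members higher in 4F than in GFP on days 1, 3, 5 and 8, and 39 to 39 averaged. It gave 0 to 1, 1 to 3, 0 to 0, 0 to 2, 0 to 2 and 0 to 2 higher in 4F than at day 0 on days 1 to 6, and 1 to 4 lower on day 8. In GFP below day 0 it gave 0 to 4, 0 to 7, 19 to 26 and 36 to 37. It gave 1 to 6 for the growth of the gap, 3 to 5 and 11 to 23 for the fall from day 1 to day 8 in 4F and in GFP, 0 to 0 for the rise from day 1 to day 3 in GFP, 0 to 2 for 3F above GFP and 1 to 35 for 4F above 3F.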
